A study of Mus musculus with 24 samples.

Results

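H3K36me3 and H3K27me3 were compared in NOS1+ N1E115 cells kept at 20% O2 for 3 days. The comparison uses 4 of the 24 samples of the series, 2 libraries for each mark, chosen by the mark and the oxygen level in the sample titles. N1E115 is an established mouse neuroblastoma line, labelled as brain tissue, with the cell type given as neuroblast in the first libraries and neuroblastoma in the repeats, and NOS1 is the neuronal nitric oxide synthase. In each library, fixed and fragmented chromatin was precipitated with an antibody to the named mark and sequenced (ChIP-seq), and all 4 libraries share cells, oxygen level and time, with no other agent named. The first library of each mark is called set 1 and the repeat set 2, each with its own input. Whether the sets were grown as separate cultures is not given by the labels. The 2 libraries of a mark may therefore differ for technical reasons only. A p-value here ranks the difference between the marks among those from every reassignment of the 4 libraries. It does not measure variation between cultures.

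Trimethylation of lysine 36 of histone H3 is written by SETD2, which travels with elongating RNA polymerase II, so the mark lies over the bodies of transcribed genes. Trimethylation of lysine 27 is written by EZH2 or EZH1 in Polycomb repressive complex 2 and covers silent genes, among them developmental regulators of other lineages. H3K36me3 on a histone tail is known to hinder that complex, and H3K4me3 and H3K27ac mark the starts of active genes.

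The gene starts on which the results below turn are shown with the reference promoter sequence from RefSeq (GRCm38.p6, 250 bases before to 50 after the start, 5′ to 3′ on the strand of the gene), with every CpG in capitals. Polr2a, the largest subunit of RNA polymerase II (chr11:69758584-69758883, minus strand, 30 CpG), and Th, the rate-limiting enzyme of catecholamine synthesis (chr7:142899946-142900245, minus strand, 15 CpG), stand for starts with H3K4me3 and H3K36me3 behind them. Nos1 (chr5:117866589-117866888, plus strand, 6 CpG) is the gene in the label of the line and had no H3K4me3 peak at this start. Cd3e, a T cell receptor subunit (chr9:45009562-45009861, minus strand, 8 CpG), stands for a start inside H3K27me3. Ess2, a spliceosome-associated protein (chr16:17911299-17911598, minus strand, 13 CpG), and Gsc2, a homeobox gene (chr16:17914978-17915277, minus strand, 24 CpG), are the neighbouring genes of opposite state with the shortest distance between the marks. Zfp800, a zinc finger gene, has a start at the 5′ end of its record (chr6:28397956-28398255, minus strand, 14 CpG) and another inside it (chr6:28261875-28262174, minus strand, 41 CpG), and the marks change around the internal start.
Polr2a: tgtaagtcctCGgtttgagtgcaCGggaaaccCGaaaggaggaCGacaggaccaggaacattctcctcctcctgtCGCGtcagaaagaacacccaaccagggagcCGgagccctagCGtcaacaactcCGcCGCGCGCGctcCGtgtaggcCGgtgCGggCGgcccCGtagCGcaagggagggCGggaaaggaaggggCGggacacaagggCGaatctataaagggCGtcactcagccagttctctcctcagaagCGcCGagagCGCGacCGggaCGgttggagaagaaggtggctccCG
Th: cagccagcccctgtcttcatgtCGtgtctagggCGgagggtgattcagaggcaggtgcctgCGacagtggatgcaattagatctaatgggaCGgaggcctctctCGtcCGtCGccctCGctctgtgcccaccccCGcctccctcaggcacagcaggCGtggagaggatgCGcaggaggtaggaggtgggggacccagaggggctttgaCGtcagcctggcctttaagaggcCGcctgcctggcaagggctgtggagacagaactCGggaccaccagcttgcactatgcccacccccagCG
Nos1: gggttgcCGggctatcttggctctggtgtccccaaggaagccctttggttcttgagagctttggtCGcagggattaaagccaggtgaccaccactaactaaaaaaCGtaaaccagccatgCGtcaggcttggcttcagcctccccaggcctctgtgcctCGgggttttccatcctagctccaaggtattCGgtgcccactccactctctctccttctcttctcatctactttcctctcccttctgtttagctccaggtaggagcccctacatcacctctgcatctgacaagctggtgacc
Cd3e: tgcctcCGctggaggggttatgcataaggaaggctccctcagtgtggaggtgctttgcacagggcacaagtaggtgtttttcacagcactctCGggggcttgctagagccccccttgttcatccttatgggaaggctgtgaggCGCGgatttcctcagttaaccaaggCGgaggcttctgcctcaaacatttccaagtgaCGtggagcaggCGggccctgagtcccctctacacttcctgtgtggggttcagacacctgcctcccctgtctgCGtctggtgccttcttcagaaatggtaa
Ess2: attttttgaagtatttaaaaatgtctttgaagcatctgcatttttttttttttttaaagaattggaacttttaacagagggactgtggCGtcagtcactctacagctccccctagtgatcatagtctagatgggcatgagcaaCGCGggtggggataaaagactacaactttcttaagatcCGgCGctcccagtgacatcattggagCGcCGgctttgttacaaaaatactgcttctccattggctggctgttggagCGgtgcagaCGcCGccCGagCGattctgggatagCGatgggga
Gsc2: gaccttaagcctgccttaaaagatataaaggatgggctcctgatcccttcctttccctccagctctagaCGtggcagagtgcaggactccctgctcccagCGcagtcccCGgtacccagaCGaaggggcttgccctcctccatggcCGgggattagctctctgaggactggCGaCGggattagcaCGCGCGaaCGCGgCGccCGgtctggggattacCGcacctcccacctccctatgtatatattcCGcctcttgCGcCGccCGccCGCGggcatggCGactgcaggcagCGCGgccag
Zfp800 at the 5′ end of the record: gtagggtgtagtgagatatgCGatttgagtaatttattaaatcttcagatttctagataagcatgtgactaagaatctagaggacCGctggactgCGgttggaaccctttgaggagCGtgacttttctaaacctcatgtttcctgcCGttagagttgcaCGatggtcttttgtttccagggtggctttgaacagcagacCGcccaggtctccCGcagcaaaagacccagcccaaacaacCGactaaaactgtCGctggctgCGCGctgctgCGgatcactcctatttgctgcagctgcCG
Zfp800 inside the record: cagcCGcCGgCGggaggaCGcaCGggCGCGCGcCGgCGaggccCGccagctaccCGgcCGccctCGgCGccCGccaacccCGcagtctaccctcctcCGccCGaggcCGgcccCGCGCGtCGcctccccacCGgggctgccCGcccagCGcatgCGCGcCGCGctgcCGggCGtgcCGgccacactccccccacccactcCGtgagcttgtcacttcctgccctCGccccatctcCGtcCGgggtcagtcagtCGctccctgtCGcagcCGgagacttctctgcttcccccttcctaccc

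The marks lay in different places of the genome, and which of them covered more of it differed between the sets. H3K36me3 islands, the broad enriched stretches called by SICER, covered 331.0 Mb in set 1 and 349.2 Mb in set 2. H3K27me3 islands covered 311.6 Mb in set 1 and 368.7 Mb in set 2. The means were 340.1 ± 12.9 Mb and 340.1 ± 40.4 Mb (SD, n = 2 each), with a difference of 19.5 Mb in set 1 and -19.6 Mb in set 2 (H3K36me3 minus H3K27me3), and the groups overlapped (two-sided exact permutation test, p = 1). Of the bases under H3K36me3, 91.7% and 91.2% were in protein-coding genes (sets 1 and 2), against 41.7% and 40.8% of the bases under H3K27me3. The groups did not overlap, and the exact permutation test gave p = 0.333, the smallest that 2 against 2 libraries allow. H3K36me3 islands with no gene made up 5.56% and 5.73%, and H3K27me3 islands with no gene 59.1% and 58.4%. Most of H3K27me3 lay outside protein-coding records, and nearly all of H3K36me3 inside them. The share of the genome inside these records was not measured. Whether H3K27me3 lay outside genes more or less than random placement would give is therefore not known. The islands held 25048785 and 13350093 reads for H3K36me3 and 8920100 and 12228541 for H3K27me3, so the order of the sets in reads differed between the marks.

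The island number and length of H3K27me3 moved with the set. H3K36me3 had 18266 and 20804 islands with median lengths of 10000 and 9600 bp. H3K27me3 had 34471 islands with a median of 4600 bp in set 1 and 22718 with a median of 8400 bp in set 2. The longest islands reached 259200 and 237600 bp for H3K36me3, and 301400 and 386000 bp for H3K27me3. Bases found in both sets amounted to 308.0 Mb of H3K36me3 (82.8% of the bases in either set) and 274.1 Mb of H3K27me3 (67.5%), so H3K36me3 was placed more alike in its libraries. No island lay on the Y chromosome.

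Of 21887 protein-coding genes, 8062 (36.8%) were H3K36me3-only, meaning that islands covered at least 50% of the gene record in both H3K36me3 libraries and in neither H3K27me3 library. The reverse, H3K27me3-only, held for 2229 genes (10.2%). In 9958 genes (45.5%) no library reached 50%, and 6459 of these had no island base in any of the 4 libraries. In 1637 genes (7.48%) the libraries of a mark fell on different sides of 50%. These states were made from the islands themselves, so their counts describe the libraries and carry no test per gene. Counted mark by mark, 36.9% of genes were covered in both H3K36me3 libraries and 10.2% in both H3K27me3 libraries.

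The typical H3K36me3-only gene was covered nearly from end to end and carried none of the other mark. The median cover was 90.4% and 90.6% in the H3K36me3 libraries, and 99.4% of these genes had no base under H3K27me3 in either library. H3K27me3-only genes had a median cover of 93.4% in set 1 and 99.4% in set 2, and 96.1% of them had no base under H3K36me3. Across genes, covered shares of the sets correlated with r = 0.96 for H3K36me3 and r = 0.916 for H3K27me3 (21887 genes, which are not independent replicates). Near the threshold the choice was arbitrary: 293 genes had their lower H3K36me3 cover between 50% and 55% and 277 between 45% and 50%, against 116 and 117 genes for H3K27me3.

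**Figure D1:**
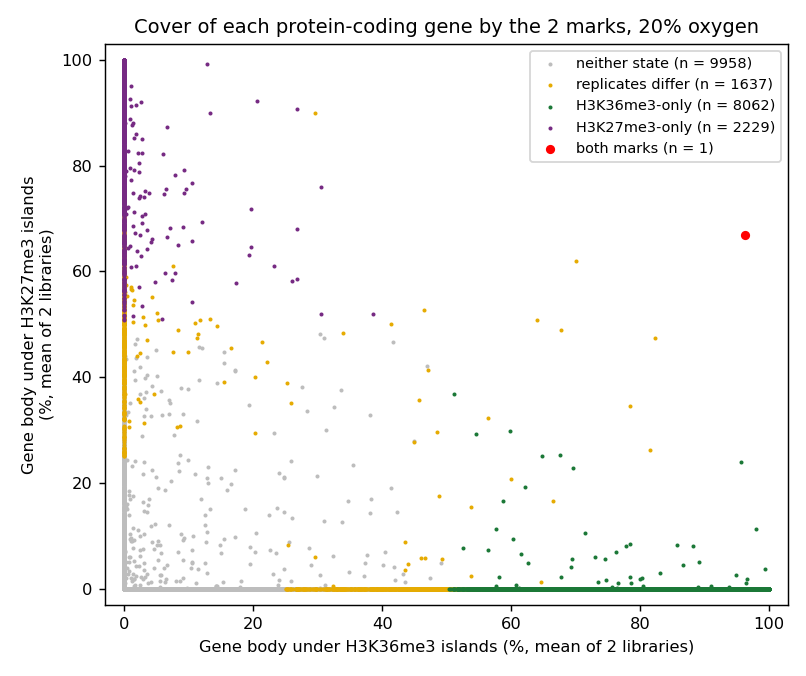
Each point is a protein-coding gene, with the percent of its record under H3K36me3 islands (x axis, mean of 2 libraries) against the percent under H3K27me3 islands (y axis, mean of 2 libraries), coloured by state. Most points lie along the axes, and Ddx39b, in red, is the 1 gene that reached 50% in all 4 libraries.

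Nos1 (chr5:117866839-117958840, plus strand) was H3K36me3-only. H3K36me3 covered 95.8% of its record in set 1 and 100% in set 2, with 48.7 and 37.3 reads per kb of gene body, and H3K27me3 covered 0% in both sets. With only the islands above the median reads per kb of their library, the lower cover fell to 7.17% and the call was lost. The island of set 2 began 24638 bp before the record, in a stretch with no other protein-coding record, while that of set 1 began 1038 bp before it. The nearest H3K4me3 peak lay 23637 bp (set 1) and 23773 bp (set 2) before the record, and none lay inside it. The H3K36me3 of set 2 thus began close to that peak and not at the annotated start printed above.

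Genes that every dividing cell needs were nearly all H3K36me3-only. All 25 cell cycle genes were, with a lower cover between 62.0% (Plk1, a mitotic kinase) and 99.4%. Top2a, the topoisomerase that untangles replicated DNA, was covered to 99.4% in both H3K36me3 libraries, and Cdk1, the mitotic cyclin-dependent kinase, to 94.9% and 96.0%. Of 24 housekeeping genes 23 were H3K36me3-only. Of families taken by gene symbol, 69 of 80 cytosolic ribosomal proteins, 35 of 40 proteasome subunits, 50 of 56 initiation factors and 34 of 40 complex I subunits were H3K36me3-only. None of the cell cycle, housekeeping, ribosomal, proteasome and initiation factor genes was H3K27me3-only, and 1 complex I gene was. These shares stand beside 36.8% of all genes.

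The machinery that elongates transcripts and handles H3K36 methylation was itself under H3K36me3. Of 24 elongation genes 23 were H3K36me3-only, among them Setd2, the writer of the mark, with 98.7% in both libraries and 134 and 58.6 reads per kb. Aff4, a scaffold of the super elongation complex, had 98.7% and 98.1%. Ell2, an elongation factor of the same complex, was in neither state, with no H3K36me3 and with 26.5% and 27.1% under H3K27me3. Of 22 writers, erasers and readers of H3K36 methylation 19 were H3K36me3-only, including Nsd2, a dimethyltransferase (98.8% and 98.3%), Psip1, a reader (97.8% and 96.5%) and Ash1l, another methyltransferase (98.9% and 98.6%). Nsd1, Kdm4d and Setmar were in neither state. The H3K36me3-only shares of both lists stand beside 36.8% of all genes.

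Genes for subunits of Polycomb complexes 1 and 2 and for H3K27 demethylases were also mostly H3K36me3-only, 26 of 34, against 36.8% of all genes. Ezh2, the catalytic subunit, was covered to 97.7% and 98.0% by H3K36me3 and to 0% by H3K27me3 in both sets. Mtf2, an accessory subunit that helps the complex reach CpG islands, had 99.2% in both sets. Its relative Phf19 (chr2:34893752-34914353) was the 1 member that was H3K27me3-only, with 74.0% and 75.7% under H3K27me3 and no base under H3K36me3. Its start still had an H3K4me3 peak in both libraries. Kdm6a, an X-linked H3K27 demethylase, had 59.6% under H3K36me3 in set 1 and 35.9% in set 2, and Pcgf2, a PRC1 subunit, 57.1% and 38.0%, so both fell between the states.

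The label of the line was checked on marker genes. All 7 markers of noradrenergic neuroblastoma were H3K36me3-only. Th had 97.3% and 83.4%, Dbh, which makes noradrenaline from dopamine, 90.4% and 84.8%, and Gap43, a growth cone protein, 92.3% and 91.3%. Of 45 markers of other cell types, 18 were H3K27me3-only and 4 were H3K36me3-only, namely S100b, Cnp, Cldn5 and Vwf, against 10.2% and 36.8% of all genes. A further 22 were in neither state. Of the immune markers 6 of 10 were H3K27me3-only and none was H3K36me3-only: Cd3e and Lyz2, a myeloid lysozyme, were covered to 100% by H3K27me3 in both sets. Ptprc, the pan-leukocyte phosphatase, had 56.5% and 66.2% under H3K27me3, and its lower cover was 11.8% with only the islands above the median reads per kb. Of liver and muscle markers 3 of 7 each were H3K27me3-only, such as Alb, serum albumin (82.2% and 92.4%), and Myod1, the myogenic regulator (100% in both).

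Within the sympathetic and neuronal lists, H3K36me3-only was the commonest state. Of 30 noradrenergic identity genes 17 were H3K36me3-only, against 36.8% of all genes. Ret, a growth factor receptor, had 98.4% and 97.1% with 139 and 65.7 reads per kb, Mycn, the oncogene often amplified in neuroblastoma, 92.4% in both libraries, and Isl1, a LIM homeobox factor, 88.7% and 76.5%. Slc6a2 (chr8:92960470-93001667), the noradrenaline transporter, was the 1 H3K27me3-only member, with 87.1% and 93.2%. Gata2, a GATA factor of this lineage, had no H3K36me3 in set 1 and 62.6% in set 2. Of 31 cytoskeletal and synaptic genes 22 were H3K36me3-only, against the same 36.8%, among them Map1b, a microtubule-associated protein (99.6% and 99.2%, 173 and 79.8 reads per kb). Rbfox3, which encodes the mature neuron antigen NeuN, was the 1 H3K27me3-only member (75.4% and 82.7%).

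Of 25 genes of the mesenchymal state of neuroblastoma, 4 were H3K36me3-only, against 36.8% of all genes, and 3 were H3K27me3-only, a share near the 10.2% of all genes. Fn1, fibronectin (at least 98.1% in both), Vim, vimentin (94.2% and 84.9%), Zeb2 (80.9% and 85.3%) and Fosl2 (89.1% and 94.7%), both transcription factors, were H3K36me3-only. Prrx1, a homeobox factor of mesenchyme (97.1% and 98.3%), Cd44, a hyaluronan receptor (99.1% and 100%), and Twist2, a mesenchymal basic helix-loop-helix factor (80.7% and 96.7%), were H3K27me3-only. The other members were in neither state (14 genes) or differed between libraries (4 genes). Snai2 and Yap1, regulators linked to the mesenchymal state, were among the latter, with 0% and 100% and with 28.6% and 80.9% under H3K27me3 in sets 1 and 2. Of 7 cyclin-dependent kinase inhibitors 3 were H3K36me3-only, a share near the 36.8% of all genes, and none H3K27me3-only. Of the 3, Cdkn1a and Cdkn1b lost the call with only the islands above the median reads per kb. Cdkn2b had 100% in both libraries, and Cdkn2a 81.0% and 44.7%.

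The Hox genes, homeobox genes that pattern the body axis in 4 clusters, held no H3K36me3-only member and 22 H3K27me3-only members of 39, against 10.2% of all genes. In the Hoxb cluster 9 of 10 members were H3K27me3-only, and Hoxb9 was covered to 100% in both sets. In Hoxd 6 of 9 and in Hoxa 4 of 11 were, and in Hoxa the number covered by H3K27me3 was 4 in set 1 and 9 in set 2. The Hoxc cluster changed along its length. Hoxc11 and Hoxc12 were covered to 100% by H3K27me3 in both sets and Hoxc13 to 88.7% and 100%, while Hoxc10 had neither mark. Hoxc5 and Hoxc8 were covered to 100% by H3K36me3 in set 2 and to 0% in set 1. Hoxc9, next to Hoxc8, had 19.5% and 24.9% under H3K36me3, so a little of the mark was present there in both sets, while the full cover of Hoxc5 and Hoxc8 rests on 1 library.

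Other developmental transcription factors were mostly in neither state, 38 of 65, against 45.5% of all genes. There were 12 H3K27me3-only members, against 10.2% of all genes, such as Pax8, a thyroid and kidney regulator (97.8% and 100%), Pax2, of kidney and midbrain (95.2% and 96.1%), and Wt1, of kidney and gonad (88.8% and 95.8%). Tbx20 (94.2% and 89.3%), Otx1 (81.8% in both), Vax1 (73.0% and 69.6%) and Sox9 (72.1% and 64.9%) were H3K36me3-only. The list's median cover was 0% in all 4 libraries, as was the median of all genes except 4.41% in the set 2 H3K36me3 library.

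Large gene families differed in the same way. Of 53 keratins, the filament proteins of epithelia, 52 were H3K27me3-only with a median cover of 100% in both sets. Krt8 had 64.7 and 73.8 reads per kb of H3K27me3. Chemokines and their receptors (18 of 54), cytochrome P450 genes (25 of 99), collagens (11 of 44) and potassium channels (21 of 94) were H3K27me3-only more often than the 10.2% of all genes. Olfactory receptors (105 of 1110) and vomeronasal receptors (7 of 355) were not, and 938 and 344 of them were in neither state. Zinc finger genes named Zfp were mostly H3K36me3-only, 238 of 397, and 7 were H3K27me3-only. Of 87 clustered histone genes 79 and of 69 protocadherins 59 were in neither state. States of near-identical copies are uncertain, since the handling of reads that map to several places is not given in the sources used here.

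**Figure D2:**
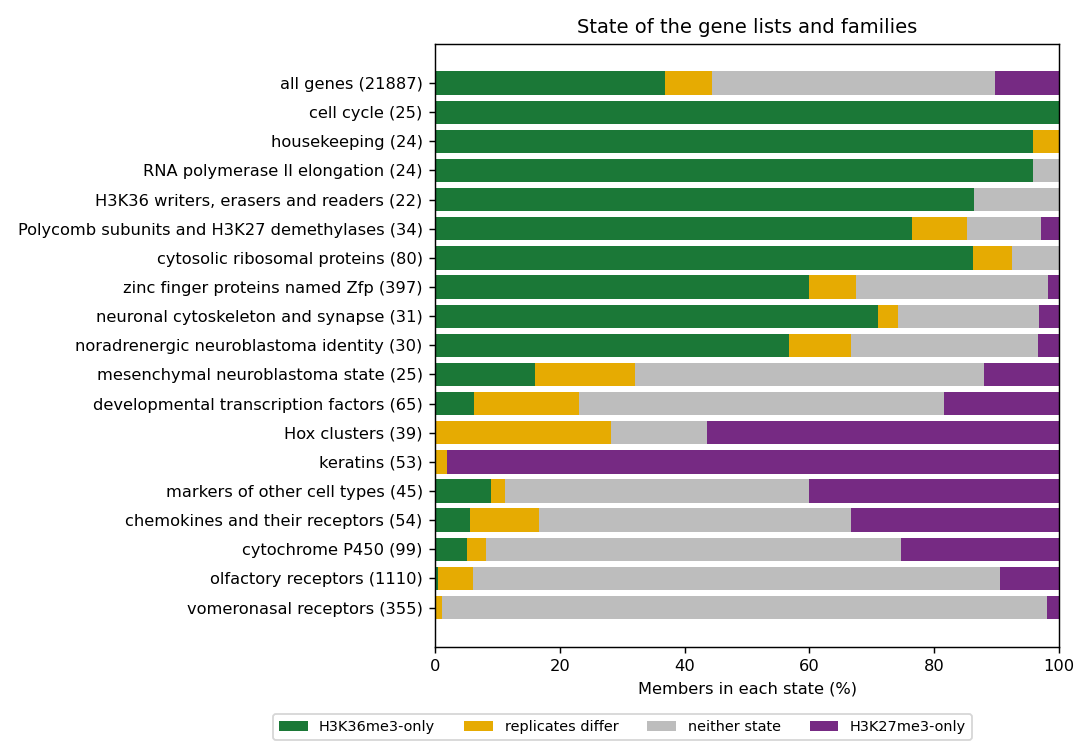
Each bar is a gene list or family with its number of members in brackets, and the coloured lengths give the percent of members in each state (x axis). Cell cycle, housekeeping and elongation genes are nearly all green (H3K36me3-only), 52 of 53 keratins are purple (H3K27me3-only), and olfactory and vomeronasal receptors are mostly grey (no library at 50%).

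Genes of a state lay next to each other along the chromosomes. The next gene after an H3K36me3-only gene was H3K36me3-only in 54.7% of cases, against 36.8% of all genes. After an H3K27me3-only gene the next was H3K27me3-only in 49.0%, against 10.2% of all genes. The longest H3K27me3-only run was the 27 genes from Krt80 to Krt18 on chromosome 15 (684 kb), followed by 18 genes from Krtap29-1 to Krt42 on chromosome 11 and 14 from Wfdc2 to Wfdc3 on chromosome 2. A further 12 ran from Cd3g to Tmprss13 on chromosome 9, which holds the T cell receptor subunit genes, and 12 from Slc18b1 to Taar7d on chromosome 10, with trace amine receptors. Neighbours can share an island, so they are not independent.

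Only 1 gene, Ddx39b, was covered to at least 50% by both marks in all 4 libraries (0.00457% of genes). Ddx39b (chr17:35241746-35253707, plus strand) encodes an RNA helicase of mRNA splicing and export. H3K36me3 covered 96.2% of it in both sets, with 86.2 and 39.7 reads per kb, and H3K27me3 62.8% and 71.1%, with 24.8 and 35.0 reads per kb. Its H3K27me3 islands began 3655 bp (set 1) and 3455 bp (set 2) after the 5′ end and ran past the 3′ end. The count was 7 without the set 2 H3K27me3 library and 3 without the set 1 H3K36me3 library.

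In at least 1 library of each mark, 16 genes reached 50%, of which 8 were on the X chromosome, which holds 4.41% of all genes. In all 8 X-linked genes H3K27me3 reached 50% in set 1 and not in set 2, where the highest cover was 24.0%. The same held for 5 of the 8 autosomal genes, namely Xaf1, Septin3, Tbx1, Gsto1 and St3gal5. Among these 16 genes the difference between the sets was thus not confined to the X chromosome. Over whole chromosomes, H3K27me3 covered 12.69 Mb of the X in set 1 and 10.43 Mb in set 2. On all autosomes it covered 298.86 Mb in set 1 and 358.28 Mb in set 2, the opposite order. Armcx2, an armadillo-repeat gene, had 64.2% and 76.0% under H3K36me3 and 100% and 24.0% under H3K27me3. Tceal8, an elongation factor-like gene, had 67.8% in both H3K36me3 libraries and 97.9% and 0% under H3K27me3. Rpl36a, a ribosomal protein gene, had 77.3% and 85.6% under H3K36me3, and 52.4% and 0% under H3K27me3. These genes were picked for that pattern after their values were seen.

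Base by base, the marks shared 83.4 kb in all 4 libraries, in 25 pieces, 0.0271% of the H3K36me3 and 0.0304% of the H3K27me3 found in both sets. Pairs of 1 library of each mark shared between 292.8 and 663.2 kb, and leaving out 1 library raised the 83.4 kb to between 170.6 and 312.6 kb. Sntg2, which encodes gamma-2-syntrophin (chr12:30174482-30373392, minus strand), held 43.2% of the shared bases in 8 pieces. Sntg2 counts as H3K27me3-only by the 50% rule. H3K36me3 covered 30.2% and 30.9% of it and H3K27me3 75.6% and 76.4%. Plekha1, an adaptor of phosphoinositide signalling, shared 8000 bp, Bcl2l11, a pro-apoptotic BCL2 relative, 6800 bp, and Pank1, a pantothenate kinase, 2800 bp. In Kalrn, a guanine nucleotide exchange factor, 2400 bp were shared, in Septin3 2200 bp and in Auts2 1000 bp. An island in a mixture of cells or alleles cannot be told apart from both marks on the same chromatin.

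The marks differed in where they began and ended relative to a gene. This was measured in genes of at least 5000 bp with no other record within 20000 bp, 789 H3K36me3-only and 400 H3K27me3-only. Mean H3K36me3 cover in set 1 rose from 1.89% in the last 2 kb before the 5′ end to 47.3% in the first 10% of the record, and reached 94.8% in its ninth part of 10. It was 80.0% in the first 2 kb past the 3′ end and 29.9% between 4 and 6 kb past it. The largest island on the gene began after the 5′ end in 99.4% of genes in both sets, by a median of 1980 bp in set 1 and 2300 bp in set 2. It ended a median of 2246 and 2563 bp past the 3′ end. Edges are known only to the 200 bp windows of the caller.

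H3K27me3 kept less closely to the ends of the gene. In H3K27me3-only genes it covered 65.5% and 73.0% of bases at 18 to 20 kb before the gene and 87.4% and 92.3% in the middle of the record (sets 1 and 2). It still covered 62.7% and 66.8% at 18 to 20 kb past the 3′ end. Its largest island began after the 5′ end in 66.5% and 53.2% of genes, with median offsets of 2929 and 772 bp. It began before the 5′ end by more than 10 kb in 16.8% and 32.5%. It ended past the 3′ end in 43.0% and 56.8%, with median offsets of -2708 and 2180 bp, and more than 10 kb past it in 22.2% and 34.8%. Around H3K36me3-only genes, H3K27me3 was found on the upstream side more than on the downstream side. In set 1 it covered 9.92% at 2 to 4 kb before the 5′ end and 3.67% in the last 2 kb, 0% in the first 2 kb past the 3′ end, and 5.94% at 18 to 20 kb past it.

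**Figure D3:**
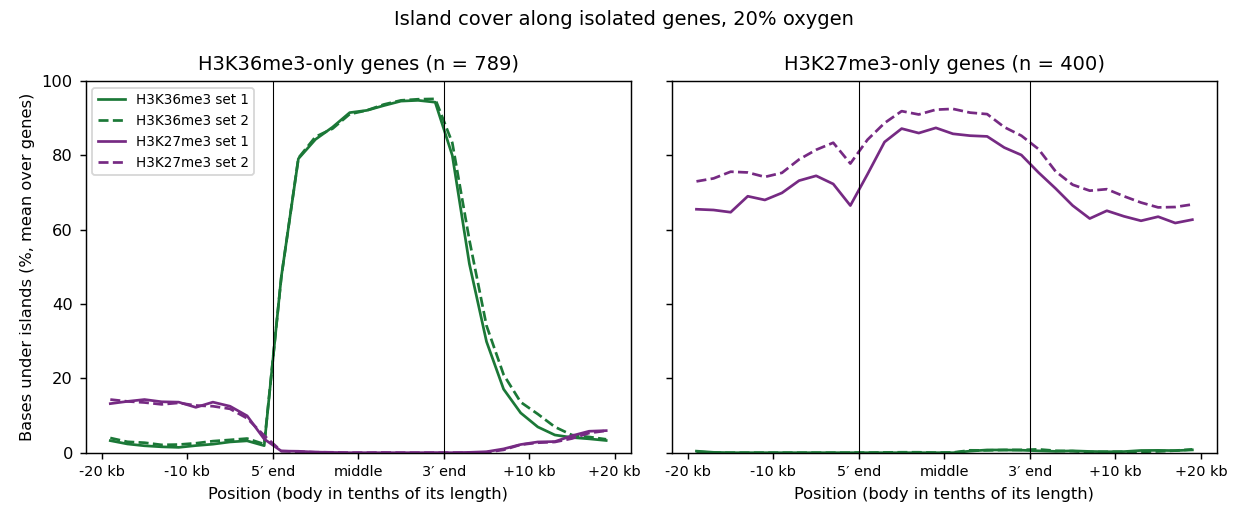
Mean percent of bases under islands (y axis) from 20 kb before the 5′ end to 20 kb past the 3′ end (x axis, gene record divided into 10 equal parts), for each library (colour for the mark, solid for set 1, dashed for set 2). H3K36me3 rises just inside the 5′ end and falls within 10 kb of the 3′ end, while H3K27me3 in its own genes exceeds 60% across the whole window.

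Where the marks met, a gap lay between them. Regions found in both sets and at least 2000 bp long changed from H3K36me3 to H3K27me3 or back 4023 times along the chromosomes. In 1553 of these changes the regions were at most 20 kb apart, with a median gap of 8200 bp (quartiles 4200 and 13800 bp). There were 17 overlaps and 10 gaps of at most 1 kb. Between neighbouring H3K27me3 regions, 5760 of 23339 gaps were at most 1 kb, and between H3K36me3 regions 3349 of 16205. Very short gaps were thus 0.249% of the changes of mark, against 24.7% and 20.7% of the steps within H3K27me3 and within H3K36me3. Steps within a mark include breaks that the caller made in 1 library only, as in the H3K27me3 of Zfp800. They are therefore not a like comparison for the changes of mark.

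The gap often held an active promoter. An H3K4me3 peak of both 20% O2 libraries lay in 71.5% of the gaps between opposite marks, an H3K27ac peak in 58.5% and a RefSeq promoter in 59.7%. At matched gap lengths of 2 to 5 kb the H3K4me3 share was 89.5% between opposite marks (401 gaps), 42.0% between H3K36me3 regions (3163) and 2.75% between H3K27me3 regions (4975). At 10 to 20 kb it was 61.9%, 58.1% and 6.12%, and there H3K27ac was less frequent between opposite marks (48.6%) than between H3K36me3 regions (62.8%). The H3K36me3 edge that faced H3K27me3 lay within 2000 bp of a gene's 5′ end in 36.9% of cases and of a 3′ end in 17.8% (1515 edges). The H3K27me3 edge did so in 21.2% and 4.82%. The share of gaps with a feature is a description, since gaps along a chromosome are not replicates.

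**Figure D4:**
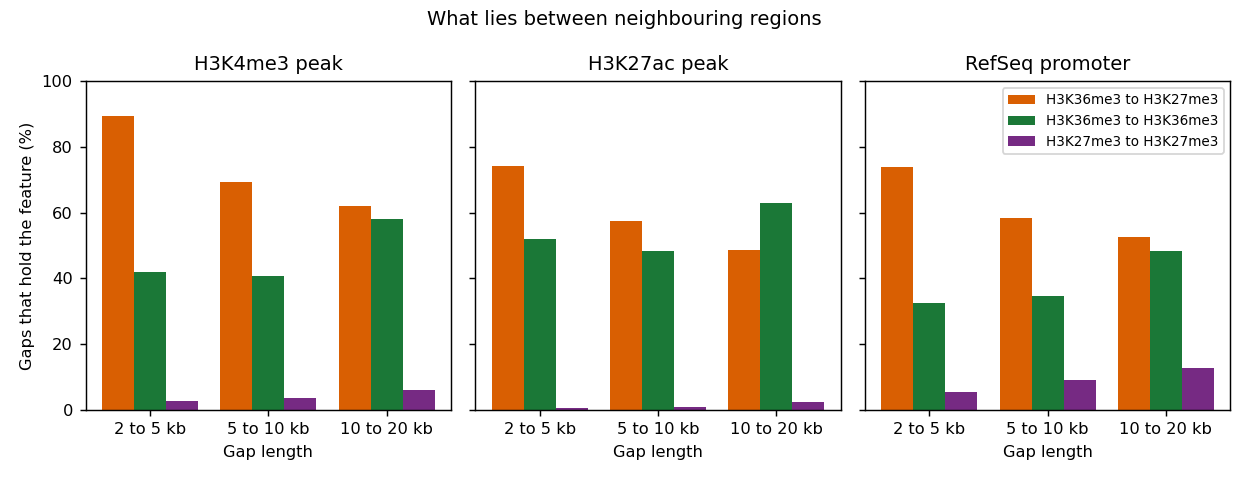
Percent of gaps (y axis) that hold an H3K4me3 peak, an H3K27ac peak or a RefSeq promoter, by gap length (x axis) and by the marks on either side (colour). The orange bars, gaps from H3K36me3 to H3K27me3, are tallest at 2 to 5 kb for all 3 features, and the purple bars, within H3K27me3, are lowest throughout.

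Neighbouring genes of opposite state showed such steps at gene scale. There were 936 such pairs, of which 917 did not overlap, with a median of 32400 bp between the marks (quartiles 13200 and 79000 bp). The smallest distance, 800 bp, lay between Ess2 and Gsc2. H3K36me3 covered 94.8% and 100% of Ess2 (chr16:17900709-17911348), and H3K27me3 100% of Gsc2 (chr16:17913114-17915027) in both sets. In set 2 alone the H3K36me3 island ran to 17912000, past the H3K27me3 start at 17911601. The Ess2 start printed above had H3K4me3 and H3K27ac peaks in both libraries and the Gsc2 start none, although Gsc2 has more CpG (24 against 13).

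Other close pairs, 1200 or 1400 bp apart, had the same form. Sec13, a subunit of the nuclear pore and of COPII coats, was covered to 93.0% and 94.6% by H3K36me3. Its neighbour Atp2b2, a plasma membrane calcium pump, was covered to 97.4% and 99.1% by H3K27me3. Prim1, the catalytic subunit of DNA primase, had 94.7% and 96.0% under H3K36me3 beside Hsd17b6, a steroid dehydrogenase, with 100% under H3K27me3 in both sets. Ythdf1, a reader of RNA N6-methyladenosine (98.0% in both), lay next to Birc7, an inhibitor of apoptosis (100% under H3K27me3 in both). Clk4, a kinase of splicing factors (93.1% and 91.0% under H3K36me3), lay next to Col23a1, a transmembrane collagen (86.3% and 82.9% under H3K27me3). The keratin run ended at Krt18, 1400 bp from the H3K36me3 of Eif4b, an initiation factor, and the Wfdc run at Wfdc3, 1400 bp from that of Dnttip1, a cofactor of histone deacetylase complexes.

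In 66 genes (0.302%) each mark covered at least 10% of the record in both of its libraries, and in 62 of them no base was shared in all 4 libraries. Of the 42 that overlapped no other record, 33 had H3K27me3 nearer the 5′ end and H3K36me3 nearer the 3′ end, 4 had the reverse order, and 5 had no strand in the table used. In 32 of the 33 a single step separated the last H3K27me3 from the first H3K36me3, with a median length of 7400 bp. An H3K4me3 peak of both libraries lay in the step in 28 of the 32 and an H3K27ac peak in 25. Of all gaps of at most 20 kb between opposite marks, 71.5% held H3K4me3 and 58.5% H3K27ac. The steps ran from 600 bp (Armcx2) to 203200 bp (Hdac9), and a long step can hold a peak by its length alone. No comparison at matched length was made for them. The start of the record had an H3K4me3 peak in 6 of the 32, whereas 21 had another annotated start of the same gene, or its only one, in the step. The 4 with no H3K4me3 in the step were Map3k1, Hpgds, Cfap100 and Pllp.

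Zfp800 (chr6:28210548-28398033) is the clearest of these, picked after its values were seen. H3K27me3 covered 67.6% and 68.5% of the record, from 5233 bp (set 2) to 133633 bp after its 5′ end, and H3K36me3 26.8% and 26.9%, from 137033 bp (set 2) to past the 3′ end. The internal start lies 136109 bp after the 5′ end, between the marks, and had H3K4me3 and H3K27ac peaks in both libraries, while the start at the 5′ end had none. The internal promoter printed above holds 41 CpG and the upstream one 14. Atp2c1, a Golgi calcium pump, had 23.0% and 22.6% under H3K27me3 and 72.3% and 66.8% under H3K36me3. Arhgef7, a guanine nucleotide exchange factor, had 25% and 25.2%, and 63.1% and 66.6%. Slit3, an axon guidance ligand, had 40.2% and 36.3%, and 27.9% and 27.3%, and a step of 184200 bp. Pcgf5, a PRC1 subunit that the Polycomb list counts in neither state, had 29.7% and 39.2% under H3K27me3 and 31.4% and 33.7% under H3K36me3.

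**Figure D5:**
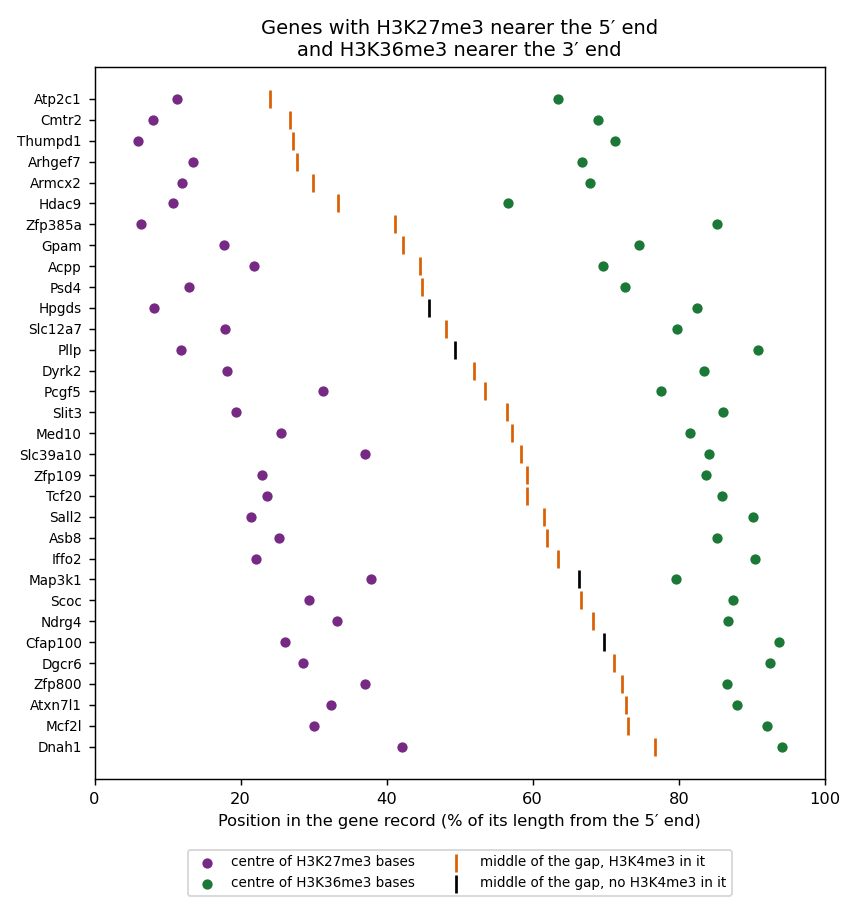
The 32 genes with H3K27me3 nearer the 5′ end, H3K36me3 nearer the 3′ end and a single step between them, with positions as a percent of the record from the 5′ end (x axis). Purple and green points are the centres of the bases under each mark, and the tick is the middle of the gap, orange in the 28 genes with an H3K4me3 peak in it.

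The marks at gene starts, which the states did not use, separated them further. Within 1000 bp of the 5′ end, an H3K4me3 peak of both libraries was present in 92.9% of H3K36me3-only genes (6588 with a strand), 7.48% of H3K27me3-only genes (1752) and 52.8% of all genes. By library the shares were 93.3% and 93.1%, 7.76% and 9.65%, and 53.4% and 53.8%. H3K27ac was present at 87.4%, 1.08% and 44.5%. H3K4me1 was present at 32.7%, 2.0% and 18.4%, but its libraries differed. The shares in sets 1 and 2 were 73.9% and 34.4% of H3K36me3-only, 4.28% and 2.74% of H3K27me3-only and 40.6% and 19.7% of all genes. A window of 2500 bp gave 70.5% for H3K36me3-only genes. At 3′ ends H3K4me3 was found in 8.73%, 2.97% and 7.95%. Genes in neither state had H3K4me3 at 29.4% of their starts, between the states with a mark.

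Promoter sequence differed with the state as well. H3K36me3-only promoters held a median of 22 CpG in 300 bases (quartiles 15 and 30), H3K27me3-only promoters 6 (3 and 15), genes in neither state 5 (2 and 16) and all 17492 promoters 13 (4 and 24). At least 10 CpG were present in 88.7%, 33.9%, 35.7% and 57.2%. The ratio of observed to expected CpG had medians of 0.81, 0.30, 0.29 and 0.58. Among the H3K27me3-only genes, the 131 with H3K4me3 at the start had a median of 14 CpG and the other 1621 a median of 5. The letters TATAAA, on either strand in the 50 bases before the start, occurred in 1.23% of H3K36me3-only, 8.68% of H3K27me3-only and 4.29% of all promoters. A match of these letters is a description and not a binding site.

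The states were read again in the 4% O2 libraries of the same cells, which they did not use. H3K36me3 covered at least 50% of the record in both 4% libraries for 89.1% of the H3K36me3-only genes, against 33.9% of all genes. H3K27me3 did so for 91.2% of the H3K27me3-only genes, against 10.6% of all genes. By library the shares were 94.2% and 92.3%, and 96.1% and 93.4%. No gene exchanged its state for the opposite one. H3K27me3 reached 50% in a 4% library for 5 H3K36me3-only genes, Rlim, Hnrnph2, Rbbp7, Ap1s2 and Trappc2, which are all on the X chromosome.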

How the data were processed

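ChIP-seq of H3K36me3 and H3K27me3 was read in 2 libraries per mark at 20% O2. Reads were aligned to mm10 and processed with BWA, Picard, SICER and MACS2, per the submitters' processing notes; versions are not given in the sources used here. The SICER islands are the authors' deposited calls, 1 list per library, and their unlabelled column of whole numbers was read as deposited read counts per island, with 17 to 32 reads in the smallest islands. Islands are multiples of 200 bp, so a faint or narrow stretch is missed. Read totals of whole libraries are unknown, and depth in islands differed by 2.81 times at most. The MACS2 peak score was read as the −log10 q-value that the authors deposited. Peak intervals of the repeat H3K4me3, H3K27ac and H3K4me1 libraries were listed in the deposit under the first libraries, and were assigned to the repeats because 100% matched the summits listed there; every value for both libraries of these marks rests on this. Per the file headers, sets 1 and 2 were sequenced on different flow cells, so set and flow cell cannot be told apart.

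Islands of each library were laid over 21887 protein-coding RefSeq records (GRCm38.p6), 3841 of which overlap another. A strand and a promoter were used for 17492; promoters of 1 chromosome were not used here. A gene has a state when at least 50% of its record is covered in both libraries of a mark and in neither of the other. Gene lists (18, with 378 of 379 entries matched), families and named genes were chosen with earlier results of these data known. Named genes were Nos1, up to 6 per list, the 8 of highest read density per mark with at least 5000 bp, and up to 2 per list that went against their list. Differences between marks were tested over libraries by two-sided exact permutation, for which p = 0.333 is the smallest value. Cover and states were tested on simulated data, where 100% of 200 changed genes were recovered among 15684. The simulated covers were kept away from the 50% threshold, and overlapping genes were left out. Full recovery therefore checks the arithmetic and not the calls near the threshold. Python 3.11.15, numpy 2.4.6, pandas 2.3.3, scipy 1.17.1 and matplotlib 3.10.9 were used. Alternatives were other thresholds, filters and windows, islands above the median density, equal covered length, and each library left out. Some genes of the lists are not reported here by name.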

Additional observations from a re-analysis of the deposited data

How the results depend on the processing

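Of 71 alternative values, 47 stayed within their limit and 24 moved beyond it. The difference in covered length changed sign with the library left out. No gene exchanged 1 single-mark state for the other in any setting. Only the setting without the ends of the record could have shown such an exchange. In the others the rule for a state made it impossible, so they give no check of it. The H3K36me3-only count ranged from 6148 to 9267 (8062 to 8742 with 1 library left out) and the H3K27me3-only count from 1619 to 2772 (2229 to 2738). Of 130 named genes in a single-mark state 124 kept it with only the islands above the median reads per kb; Nos1, Cdkn1a, Cdkn1b, Gja1, Ptprc and Kdr lost it. Genes under both marks numbered 23 at 25% and 0 at 75% of the record, and 1 to 7 with 1 library left out. Bases under both marks were 996.6 kb with either library of a mark, 15.4 kb with islands above the median, and 170.6 to 312.6 kb with 1 library left out. Facing edges numbered 493 at gaps of at most 5000 bp, 2592 at 50000 bp and 2721 with either library, and 1625 to 2071 with 1 library left out. Other shares of the record and gap limits change a count by construction; the cause of the other moves was not tested. Within 2500 bp and in either library, the H3K4me3 share at 5′ ends was 94.8% and 93.5% for H3K36me3-only and 8.85% and 9.93% for H3K27me3-only genes. The H3K27ac share was 89.7% and 91.1% for H3K36me3-only genes, and 2.11% in either library for H3K27me3-only genes. The H3K4me1 share was 70.5% and 75.7%, and 3.20% and 5.02%. The difference in covered length (−0.05 Mb, H3K36me3 minus H3K27me3) ranged from −28.63 to 28.53 Mb with 1 library left out. With a replicate block it was −0.05 Mb, and the counts of genes were 8062, 2229 and 1. These values equal the main ones by construction. They are counted among the 47 within the limit but add no check. Same-numbered libraries share an input number, but did not deviate together (r = -0.028 across 21887 genes).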

Other observations

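Chromosome 15 carried more reads per covered kb than the other autosomes for both marks. The H3K36me3 libraries had 105 and 52.2 reads per covered kb there, against 74.7 and 37.8 on the other autosomes. The H3K27me3 libraries had 37.6 and 42.5, against 28.3 and 32.8. Copy number was not tested. Of the 8 genes of highest read density, 5 for H3K36me3 and 7 for H3K27me3 lay on this chromosome, which holds 3.55% of all genes; neighbours among them can share an island. Pvalb, the calcium buffer parvalbumin, had 76.0 and 88.4 reads per kb of H3K27me3. Parl, a mitochondrial protease on chromosome 16, led the H3K36me3 list with 165 and 107. Of chromosome 15 genes 18.7% were H3K27me3-only, against 10.2% of all genes.

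On the X chromosome H3K27me3 differed with the set. It covered 12.69 Mb in set 1 and 10.43 Mb in set 2 at 20% O2, and 23.52 Mb and 8.64 Mb at 4% O2. Of the 188 X-linked H3K36me3-only genes, 3 and 1 had any H3K27me3 at 20% O2, and 23 (12.2%) and 1 at 4% O2. Of the 7874 autosomal H3K36me3-only genes these numbers were 39 and 33, and 74 and 45. X-linked bases under both marks amounted to 73.2 and 123.6 kb with the set 1 H3K27me3 library at 20% O2, and to 0.0 and 1.4 kb with that of set 2. The part of the flow cell or of the culture in this was not tested.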
